A study of Arabidopsis thaliana with 24 samples.

Results

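The transcribed loci with no annotated gene are the rows of the deposited expression table whose gene name field is a dash, which marks a transcript that the assembler built from reads and did not tie to a gene of the annotation. They number 764 of 34178 rows, and every row was a member by its empty name alone, with no use of its level. The table holds strand-specific, single-end RNA-seq of Arabidopsis thaliana, as FPKM, a level that takes account of transcript length and of library size. WT plants (Col-0) and plants carrying the clf-28 allele of CURLY LEAF (CLF) were compared in roots and shoots of plants aged 2 weeks, grown on MS plates, and in inflorescences and siliques of plants aged 5 weeks, grown in soil, all in long days at 22 °C. Each of the 8 groups had 3 libraries, and the labels do not say how many plants went into one or whether replicates were grown apart, so a p-value measures only the spread between these samples, which may be technical.

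CLF encodes a Polycomb-group methyltransferase that places a repressive mark on the histones of genes, and plants without it switch on floral and other genes outside their usual tissue. Plant genomes are also transcribed between genes. Such RNA includes long non-coding RNAs, promoter-proximal and antisense transcripts, transcripts of transposon remnants, and messages of small proteins that gene prediction passes over because their reading frames are short. A row without a name can be any of these, or a stretch of a neighbouring gene's transcript that was assembled on its own.

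The loci on which the results turn are shown here by 300 bases from the start of each interval on its own strand, 5′ to 3′, with the longest ATG-to-stop reading frame of the interval in capitals as far as it falls in the stretch. The sequences are from the RefSeq genome TAIR10.1, the strand comes from the order of the locus numbers, and the interval is genomic, so introns are not removed. The first is shown for its rise in clf-28 inflorescences and lies at chr1:17389027-17389326 on the plus strand. It holds a frame of 56 residues that runs on past the stretch.
XLOC_002438: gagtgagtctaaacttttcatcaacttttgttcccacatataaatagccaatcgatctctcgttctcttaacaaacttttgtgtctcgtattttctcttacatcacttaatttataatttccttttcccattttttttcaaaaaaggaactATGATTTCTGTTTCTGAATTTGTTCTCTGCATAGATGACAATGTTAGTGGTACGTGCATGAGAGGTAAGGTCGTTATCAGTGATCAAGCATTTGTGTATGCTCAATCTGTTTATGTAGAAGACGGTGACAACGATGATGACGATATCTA
The next rose in clf-28 roots and lies upstream of the transcription factor gene ABR1, at chr5:25890464-25890763 on the plus strand, where the longest frame has 15 residues.
XLOC_029943: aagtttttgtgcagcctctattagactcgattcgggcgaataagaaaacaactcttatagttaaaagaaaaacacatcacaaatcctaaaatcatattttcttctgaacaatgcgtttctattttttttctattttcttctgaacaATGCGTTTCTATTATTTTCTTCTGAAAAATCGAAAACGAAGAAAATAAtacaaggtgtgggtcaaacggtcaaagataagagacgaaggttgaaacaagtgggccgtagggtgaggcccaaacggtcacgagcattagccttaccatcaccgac
The third rose in clf-28 shoots, at chr3:20317546-20317845 on the plus strand, and its frame of 96 residues also runs on past the stretch.
XLOC_017067: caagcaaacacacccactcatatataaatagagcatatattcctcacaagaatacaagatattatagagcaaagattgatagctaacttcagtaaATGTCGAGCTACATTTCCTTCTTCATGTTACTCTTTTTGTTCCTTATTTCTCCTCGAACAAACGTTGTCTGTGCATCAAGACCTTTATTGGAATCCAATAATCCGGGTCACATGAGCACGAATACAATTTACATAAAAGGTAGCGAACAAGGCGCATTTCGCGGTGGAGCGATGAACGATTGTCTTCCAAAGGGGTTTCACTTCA
The fourth fell in clf-28 inflorescences and lies beside the tapetum regulator gene AMS, at chr2:7330250-7330549 on the minus strand, with a frame of 53 residues.
XLOC_012328: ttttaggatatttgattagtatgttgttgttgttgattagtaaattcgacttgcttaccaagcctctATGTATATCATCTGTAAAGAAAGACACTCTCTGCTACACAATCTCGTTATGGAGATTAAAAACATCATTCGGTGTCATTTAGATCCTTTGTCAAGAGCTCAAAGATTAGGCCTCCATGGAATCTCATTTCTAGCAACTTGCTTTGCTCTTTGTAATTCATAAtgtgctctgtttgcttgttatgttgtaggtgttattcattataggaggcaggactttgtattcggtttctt
A pair of silique loci on chromosome 3 resemble each other, at chr3:8364735-8365034 and chr3:8371054-8371353, both on the plus strand and both with a frame of 38 residues.
XLOC_015484: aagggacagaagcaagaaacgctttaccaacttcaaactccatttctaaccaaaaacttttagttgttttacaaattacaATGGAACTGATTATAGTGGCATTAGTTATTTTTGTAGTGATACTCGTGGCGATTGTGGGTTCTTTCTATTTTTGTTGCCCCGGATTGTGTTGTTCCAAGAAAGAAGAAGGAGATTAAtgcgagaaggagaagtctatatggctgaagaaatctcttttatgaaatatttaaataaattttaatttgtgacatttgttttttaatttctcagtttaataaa
XLOC_015487: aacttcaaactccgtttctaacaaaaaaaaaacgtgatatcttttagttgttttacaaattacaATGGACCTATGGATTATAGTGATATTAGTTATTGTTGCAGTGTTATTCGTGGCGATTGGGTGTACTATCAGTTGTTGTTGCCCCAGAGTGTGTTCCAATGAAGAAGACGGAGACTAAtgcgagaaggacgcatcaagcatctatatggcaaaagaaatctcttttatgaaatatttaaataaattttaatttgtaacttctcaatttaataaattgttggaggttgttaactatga
Next, 2 flower loci encode proteins like those of the S1 self-incompatibility family, at chr5:14612044-14612343 on the plus strand and chr5:4971145-4971444 on the minus strand. Their frames have 136 and 124 residues, and the stretch of the second starts a few bases inside its interval.
XLOC_028256: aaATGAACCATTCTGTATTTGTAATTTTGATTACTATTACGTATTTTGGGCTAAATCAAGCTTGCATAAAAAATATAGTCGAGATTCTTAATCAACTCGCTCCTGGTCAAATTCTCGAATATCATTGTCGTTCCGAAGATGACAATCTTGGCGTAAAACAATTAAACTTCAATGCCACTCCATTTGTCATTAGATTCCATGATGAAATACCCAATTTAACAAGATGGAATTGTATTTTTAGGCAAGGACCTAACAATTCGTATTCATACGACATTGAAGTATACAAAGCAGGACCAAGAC
XLOC_030891: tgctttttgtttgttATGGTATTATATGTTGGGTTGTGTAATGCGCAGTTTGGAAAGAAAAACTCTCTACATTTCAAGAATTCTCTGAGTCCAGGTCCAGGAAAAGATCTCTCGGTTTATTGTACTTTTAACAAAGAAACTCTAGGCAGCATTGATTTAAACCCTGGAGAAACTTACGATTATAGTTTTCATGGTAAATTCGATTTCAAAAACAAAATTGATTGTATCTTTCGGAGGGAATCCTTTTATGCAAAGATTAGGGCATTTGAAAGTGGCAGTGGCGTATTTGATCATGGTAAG
The last was lower in clf-28 roots, shoots and inflorescences, at chr3:3664397-3664696 on the minus strand, with a frame of 40 residues that runs on past the stretch.
XLOC_018198: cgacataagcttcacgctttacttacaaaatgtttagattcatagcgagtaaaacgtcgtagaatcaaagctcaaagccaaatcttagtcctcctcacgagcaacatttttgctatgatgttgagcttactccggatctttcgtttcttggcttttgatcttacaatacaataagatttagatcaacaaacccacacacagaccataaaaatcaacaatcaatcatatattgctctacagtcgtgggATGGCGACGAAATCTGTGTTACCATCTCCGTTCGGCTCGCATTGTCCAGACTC

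Of the 764 loci, 596 were alone in their interval, 126 shared an interval with rows that name genes and 42 shared one with other unnamed rows. An interval is the stretch that the authors' assembly treated as one locus, and no 2 intervals of the table overlap. A row that is alone therefore overlaps no named row on either strand, while the extent of a row that shares its interval is not given. Numbering placed 345 loci on the plus strand and 408 on the minus strand. Chromosomes 1 to 5 held 196, 109, 164, 121 and 163 of them, the mitochondrial genome 10 and the chloroplast genome 1. The following counts of structure are over the 589 loci that were alone and nuclear.

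These loci were short. Their intervals had a median length of 607 bp, with quartiles of 448 and 859 bp, against 1839 bp for the 23785 intervals that hold 1 row naming 1 gene and 1002 bp for the 117 whose gene is a non-coding RNA. The shortest, XLOC_027869, spanned 111 bp and the longest, XLOC_028306, 6669 bp with 14 start sites. The median GC content was 35.1%, between the 39.3% of named intervals and the 30.8% of sequence outside all intervals, and close to the 35.6% of non-coding RNA intervals. The longest reading frame had a median of 46 residues against 144 in named intervals and 55 in non-coding RNA intervals, and 45 loci held a frame of at least 100 residues. For 434 loci the table lists 1 start site and for 155 several.

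**Figure D1:**
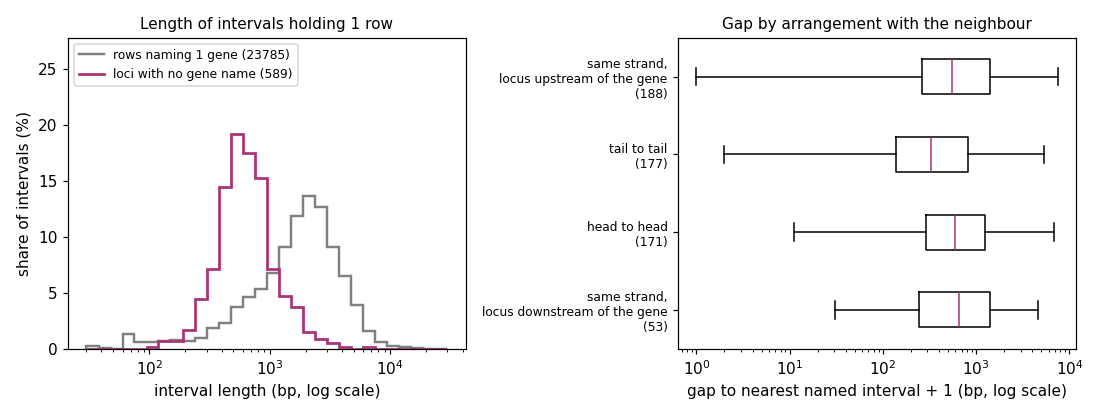
Left, the share of intervals (vertical axis, %) by interval length (horizontal axis, bp, log scale) for 589 loci with no gene name and 23785 rows naming 1 gene; the unnamed intervals centre on a median of 607 bp and the named ones on 1839 bp. Right, the gap to the nearest named interval plus 1 bp (log scale) by arrangement with that neighbour, where boxes show quartiles and median and whiskers the full range; tail-to-tail loci have the smallest median gap, 331 bp.

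The loci lay close to genes. The gap to the nearest named interval had a median of 469 bp, 304 of 589 loci lay within 500 bp, 80 lay over 2000 bp away and 11 over 5000 bp. A locus upstream of its nearest gene on the same strand was the commonest arrangement, with 188 loci and a median gap of 550 bp. Tail-to-tail loci, whose 3′ end faces the 3′ end of the gene, numbered 177 with a median gap of 331 bp, and head-to-head loci, whose 5′ end faces the 5′ end of the gene, 171 with a median gap of 592 bp. Loci downstream of the gene on the same strand numbered 53.

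The newer RefSeq annotation places a gene on the same strand under 302 of the 589 loci, a gene on the other strand only under 76 and none on either strand under 211. Among the 302, 213 lay first over a non-coding RNA gene, 61 over a protein-coding gene that the deposited table names nowhere, 20 over a protein-coding gene that it names elsewhere and 7 over a snoRNA or snRNA gene. Loci over unlisted protein-coding genes had the longest frames of the larger classes, with a median of 63 residues, against 44 where RefSeq has no gene. A translated search against the RefSeq proteins (blastx, E-value up to 1e-10) gave a match for 104 loci, and 86 had a copy elsewhere in the genome at 90% identity or more over at least 50% of their length. The match can be a gene fragment or a transposon remnant, and 9 of the 104 matches were to transposon-type proteins.

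The levels were low. Over the 22 libraries used, the median of the loci's mean FPKM was 0.512, against 9.70 for rows naming 1 protein-coding gene and 4.40 for rows naming 1 non-coding RNA gene. In at least 1 library 642 loci reached 1 FPKM, 139 reached 10 FPKM and 20 reached 100 FPKM. The tests below cover the 488 loci that reached 1 FPKM in 3 or more libraries, and the other 276 were not tested. Read depth is unknown, so a locus listed at 0 cannot be told from one below detection.

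Of the 10 loci with the highest mean, 6 were alone in intervals of 111 to 213 bp. XLOC_019470 had the second highest mean, is 888 bp long, has no RefSeq gene on either strand and was expressed in every library, between 87.6 and 547 FPKM. It stood at 500, 314 and 298 FPKM in WT shoots and 547, 312 and 520 FPKM in WT inflorescences. XLOC_003339, which shares its interval with AT1G63100, ran from 0 to 2048 FPKM and its WT root libraries stood at 0, 370 and 1257 FPKM. XLOC_027869, with 443 copies elsewhere in the genome, was listed at 0 in 14 of 22 libraries and reached 1406 FPKM in clf-28 inflorescences replicate 3. XLOC_031529 spans 126 bp over a snRNA gene and stood at 530, 412 and 372 FPKM in WT inflorescences, against 0, 64.3 and 18.8 FPKM in WT roots. XLOC_007984, of 127 bp, lies 642 bp from TAA1, a gene of auxin synthesis, and stood at 149, 42.3 and 69.9 FPKM in WT inflorescences and at 0 in all 3 WT root libraries. Fragments per library are unknown. None of these 5 loci was called in clf-28 in any tissue.

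Library facts bear on what follows. The library labelled clf-28 shoots replicate 3 and that labelled clf-28 siliques replicate 3 went against their tissue labels, and the unnamed loci show it too. Across the 488 loci, the former had a Pearson correlation of 0.961 with the mean of clf-28 siliques replicates 1 and 2 and of 0.475 with that of clf-28 shoots replicates 1 and 2, and the latter 0.522 and 0.909. These correlations run across loci and are descriptions without a test. Results are given without both libraries, which leaves n = 2 for clf-28 shoots and siliques, and with them where a call changes. Seed genes (CRU3, CRA1, SESA1, OLEO1 and LEC1, summed) stood at 14081 FPKM in WT siliques replicate 1, at 40.1 and 40.5 in WT siliques replicates 2 and 3, and at 38130 and 38025 in clf-28 siliques. The members did not all go the same way. LEC1 stood at 41.2, 34.9 and 35.2 FPKM in WT siliques and 45.0 and 49.5 in clf-28. CRU3 stood at 2268 FPKM in WT siliques replicate 1 and was listed at 0 in clf-28 siliques replicates 1 and 2. In the latter libraries CRA1 stood at 18560 and 18340 FPKM. Whether the CRU3 zeros carry a status flag was not looked up. They cannot be read as absence, and the seed sums may be incomplete. The seed sums differ between the silique groups and within WT siliques, and their part in the silique results was not tested. CLF itself was at 8.09 to 14.2 FPKM in WT roots and 7.42 to 8.09 in clf-28 roots, and higher in clf-28 inflorescences (7.69 ± 0.497 against 15.7 ± 3.68 FPKM, SD, n = 3), so its level does not check the genotype.

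Most of the loci differed among WT tissues, as most rows of the table did. Roots and shoots came from younger plants on MS plates, and inflorescences and siliques from older plants in soil. Between the former and the latter, tissue was therefore not separated from plant age and growth medium, and their parts were not tested. The same limit holds for the tissue patterns and the test of genotype by tissue below. The limma F test over roots, shoots, inflorescences and siliques passed an adjusted p of 0.05 for 402 of 488 loci, or 82.4%, against 83.8% of all 24335 rows tested. Where they were highest differed in number from the table as a whole. Inflorescences held 143 of the 402 maxima (35.6%, against 26.4% of all rows that passed), siliques 122 (30.3% against 23.2%), roots 82 (20.4% against 31.6%) and shoots 55 (13.7% against 18.9%). At least 5-fold above each other WT tissue, on FPKM + 1, were 37 loci in siliques, 20 in inflorescences and 7 each in roots and shoots. In siliques that is 9.20% of the 402, against 3.45% of all rows that passed. These shares are descriptions and were not tested against each other.

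**Figure D2:**
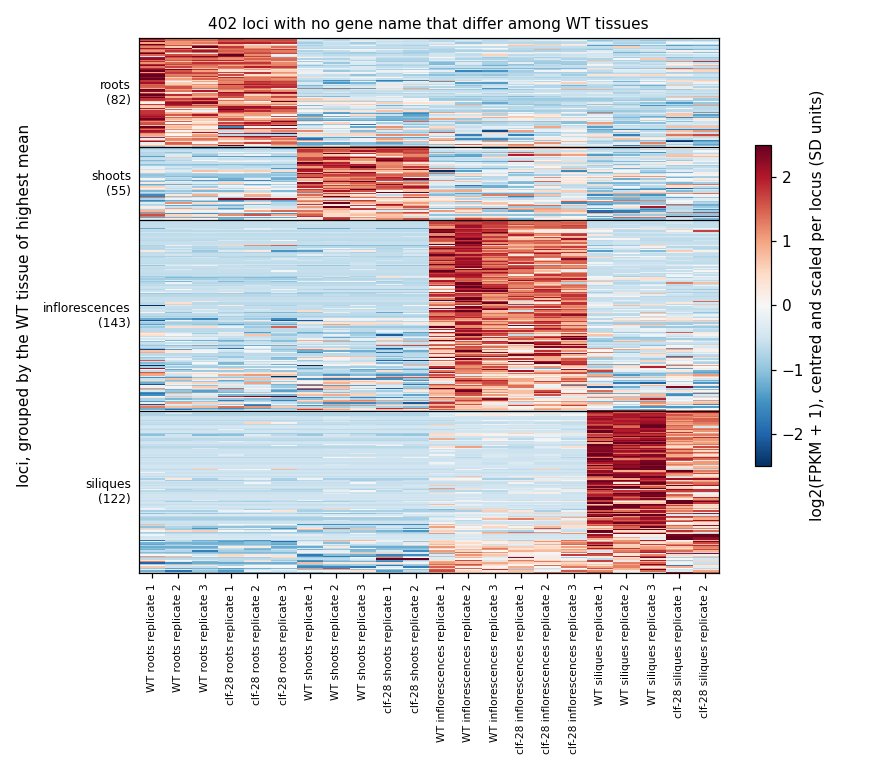
Level of the 402 loci that differ among WT tissues (rows, grouped by the WT tissue of highest mean) in 22 libraries (columns), as log2(FPKM + 1) centred and scaled per locus in SD units. The block of 143 inflorescence loci and that of 122 silique loci are the largest, and clf-28 libraries mostly follow the WT libraries of their tissue.

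In roots, the loci with the highest specific levels were XLOC_007049, XLOC_003578, XLOC_007622, XLOC_015328 and XLOC_028753. XLOC_007049 stood at 318, 157 and 162 FPKM in WT roots, at 3.06 to 10.8 FPKM in WT shoots and at 0 in WT inflorescences and siliques. Its clf-28 root libraries stood lower without overlap, at 83.3, 79.9 and 97.1 FPKM, just short of a call (-1.20, adjusted p = 0.0533 by limma). In clf-28 siliques it stood at 1.67 and 4.05 FPKM (1.88, adjusted p = 0.00252), and leaving out replicate 2 of clf-28 siliques ended that call (1.41, adjusted p = 0.0609). XLOC_003578 stood at 41.2, 19 and 16.2 FPKM in WT roots and reached at most 0.411 FPKM in any other WT library, and no sign of a change came with clf-28 roots, at 32.7, 24.3 and 24.8 FPKM (difference 0.20, SE 0.24, adjusted p = 0.771 by limma). Its downstream neighbour on the same strand, AT1G67148, which starts 1222 bp away, was likewise high in WT roots, at 127, 55.3 and 55.8 FPKM, and at most 2.27 FPKM in every other WT library.

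In shoots, the specific loci were XLOC_024673, XLOC_024672, XLOC_033036, XLOC_011168 and XLOC_002438. The first pair share an interval of 18951 bp on chromosome 4 with AT4G13570 (HTA4, a histone H2A gene), AT4G13572 and merged neighbours. XLOC_024673 stood at 148, 166 and 201 FPKM in WT shoots and between 0.0638 and 21 FPKM in all other WT libraries. XLOC_033036, of 2178 bp with 4 start sites, stood at 28, 21.5 and 14 FPKM in WT shoots and at most 2.25 FPKM elsewhere in WT. All of these groups stand clear of the other tissues.

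In inflorescences, XLOC_001989, XLOC_009341, XLOC_028256, XLOC_022564 and XLOC_002088 led. XLOC_001989 stood at 72.9, 139 and 87.6 FPKM, against 9.36 to 14.1 FPKM in WT siliques and at most 2.67 FPKM in WT roots and shoots. XLOC_009341, with a frame of 99 residues and no RefSeq gene, stood at 14.4, 27.9 and 18.9 FPKM and was listed at 0 in WT roots and shoots. XLOC_028256, shown above, stood at 10.5, 14.2 and 11.8 FPKM and reached at most 0.27 FPKM in any other WT library. XLOC_002088 rests on 1 library, with 26.8 FPKM in WT inflorescences replicate 2 against 1.58 and 4.68 in the others.

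XLOC_028256 belongs to a family among the unnamed loci. S1 proteins are small secreted proteins first known as the pistil determinant of self-incompatibility in poppy, and Arabidopsis, which is self-compatible, carries many relatives. Of the 589 loci, 9 matched such proteins, with frames of 80 to 137 residues and identities of 36.9% to 76.6% to their best RefSeq match. RefSeq has no gene on the same strand under 6 of the 9. The group was gathered by its protein match after values had been seen. All 9 were highest in reproductive tissue in WT, 4 in inflorescences and 5 in siliques, and none exceeded 0.476 FPKM in any WT root or shoot library. XLOC_032119 stood at 12.3, 4.65 and 6.75 FPKM in WT siliques and at most 0.1 FPKM in WT inflorescences, XLOC_030251 at 7.31, 4.13 and 5.02 FPKM in WT siliques and at most 0.0332 FPKM in WT inflorescences. XLOC_030891 was high in the other organ, with 8.64, 3.99 and 3.6 FPKM in WT inflorescences and at most 0.0646 FPKM in WT siliques. Of the 51 tested rows that the table does name as members of this family, 20 were highest in inflorescences, 30 in siliques, 1 in roots and 0 in shoots, and the placements were not tested against each other.

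In siliques, XLOC_029225, XLOC_015487, XLOC_015484, XLOC_022913 and XLOC_008849 led. XLOC_029225, which RefSeq places over the protein-coding gene AT5G52655, stood at 165, 130 and 94.8 FPKM in WT siliques and reached at most 0.611 FPKM in any other WT library. XLOC_015484 and XLOC_015487 lie 5871 bp apart between AT3G23370 and RIC5, a gene of the ROP effector family, and RefSeq has no gene there on either strand. In a local alignment 306 of 394 columns (77.7%) were identical. XLOC_015484 stood at 68.2, 148 and 117 FPKM in WT siliques and XLOC_015487 at 96.6, 117 and 139 FPKM. In WT inflorescences the former was at 0.733 to 4.83 FPKM and the latter at 1.52 to 4.88 FPKM, and of the WT root and shoot libraries only WT roots replicate 2 listed either above 0, with XLOC_015487 at 0.98 FPKM. XLOC_008849, of 555 bp with no RefSeq gene, stood at 23.5, 58.6 and 78.8 FPKM in WT siliques and 0.584 to 5.69 FPKM in WT inflorescences.

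The loci that changed in clf-28 were a minority in every tissue. Most of them were called in 1 tissue, and the matching share over all rows was not taken. In roots 33 of 488 loci passed an adjusted p of 0.05 (limma, Benjamini-Hochberg over 24335 rows), or 6.76%, against a background of 8.67% of all rows tested. Of the 33, 23 were higher and 10 lower, beside backgrounds of 6.19% and 2.48%. Shoots had 18 (3.69% against 10.4%), 7 higher and 11 lower, beside backgrounds of 6.38% and 4.07%. Inflorescences had 30 (6.15% against 3.92%), 10 higher and 20 lower, beside backgrounds of 1.71% and 2.21%. Siliques had 117 (24% against 28.5%), 41 higher and 76 lower, beside backgrounds of 12.1% and 16.3%. The share of loci called lay below the background in shoots, above it in inflorescences and near it in roots and siliques, and these shares were not tested against each other. The median difference over the 488 loci was 0.00 in roots, 0.00 in shoots, -0.03 in inflorescences and -0.02 in siliques on the log2(FPKM + 1) scale, and over all rows tested it was -0.01, 0.01, 0.00 and -0.05. Over all 24 libraries as labelled, with 510 loci tested, the counts were 23, 9, 22 and 73. Without the 4 WT replicate 1 libraries they were 50, 47, 75 and 149. The shares over all rows under these settings are not given here, so these shifts cannot be told from shifts of the whole table.

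**Figure D3:**
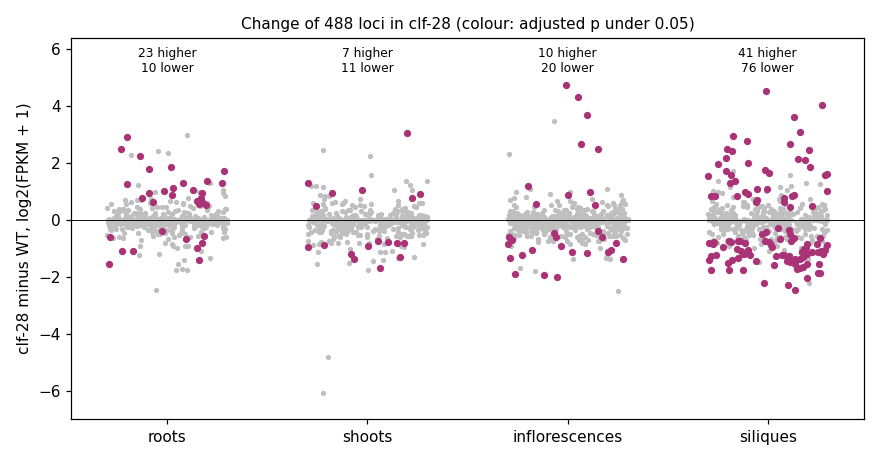
Difference clf-28 minus WT in log2(FPKM + 1) (vertical axis) of 488 loci in each tissue (horizontal axis, points spread sideways at random), over 22 libraries. Coloured points passed an adjusted p of 0.05, from 18 loci in shoots to 117 in siliques, and the largest called rise is 4.73 in inflorescences.

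In clf-28 roots the largest rises were of loci at a low level in WT roots. XLOC_032102 stood at 0.425, 1.33 and 1.37 FPKM in WT and 14.4, 14.5 and 12.8 in clf-28, a difference of 2.91 (SE 0.26, adjusted p = 6.3e-07). XLOC_002416 stood at 3.62, 1.37 and 2.06 FPKM in WT and 15.1, 19.5 and 17.7 in clf-28 (2.51, SE 0.21, adjusted p = 3.19e-07). XLOC_028659 stood at 0.602, 0 and 0.044 FPKM in WT and 2.68, 3.39 and 3.24 in clf-28 (1.78, adjusted p = 1.88e-07). In each of the 3 loci the groups do not overlap, and RefSeq places each over a protein-coding gene that the deposited table does not name, AT5G36907, AT1G47130 and AT5G43068. Of the 46 tested loci over such genes, 6 rose in roots and 0 fell, beside 6.19% and 2.48% of all rows, and the class was not tested against the others.

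XLOC_029943 stood at 0.245, 0 and 0.212 FPKM in WT roots and 3.46, 3.21 and 2.88 FPKM in clf-28 roots (1.87, SE 0.12, adjusted p = 1.91e-08). It lies on the same strand as ABR1, an ERF-type transcription factor gene that responds to wounding and abscisic acid, which begins 567 bp downstream. ABR1 rose in the same roots from 0.765 ± 0.116 to 33.2 ± 2.44 FPKM (SD, n = 3), a difference of 4.28 (adjusted p = 2.61e-10). In shoots the neighbours parted, with ABR1 higher in clf-28 (18.3 ± 2.82 FPKM, n = 2, against 0.675 ± 0.289, adjusted p = 2.64e-08) and XLOC_029943 at 0.366 and 0 FPKM against 0.105 to 0.275 in WT. XLOC_005409, which lies 1889 bp from JAZ1, a repressor of jasmonate signalling, stood at 0, 0 and 0.491 FPKM in WT roots and 1.17, 1.78 and 3.22 in clf-28 roots (1.36, SE 0.21, adjusted p = 0.000333), where JAZ1 rose by 2.44 (adjusted p = 0.000449). Its nearest named row, AT1G19170, 126 bp away tail to tail, was not called there (0.18, adjusted p = 0.379). Further rises that the naming rule took in roots were XLOC_002088 (2.26, adjusted p = 0.0418, lost without several single libraries), XLOC_016475 (1.32) and XLOC_028753 (1.26), the latter root-specific in WT and at 9.15, 10.7 and 13.6 FPKM there against 29.7, 29.4 and 24.5 in clf-28.

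Falls in roots were fewer. XLOC_018198 stood at 2.53, 1.31 and 2.85 FPKM in WT roots and 0.289, 0 and 0 in clf-28 (-1.53, SE 0.23, adjusted p = 0.000218). XLOC_007622, root-specific in WT, went from 26.9, 23.5 and 26.1 FPKM to 10.5, 8.32 and 8.4 (-1.40, SE 0.21, adjusted p = 0.000229). XLOC_018494, tail to tail with AT3G16010 at 22 bp, went from 3.62, 4 and 2.78 FPKM to 0.951, 1.6 and 0.826 (-1.08, adjusted p = 0.00012), and XLOC_023994 fell by 1.07, which leaving out replicate 1 of clf-28 roots took just over the threshold (-0.94, adjusted p = 0.051). With quantile normalization the split in roots was 20 higher and 14 lower, so the balance of directions depends on the scaling. The green-shoot markers CAB1 and RBCS1A, the 2 of 5 listed genes with rows of their own, summed to 767 FPKM in WT roots replicate 1, 327 and 268 in WT replicates 2 and 3 and 128 to 165 in clf-28 roots, and the 5 root markers to 132 to 184 in WT and 257 to 339 in clf-28. Of the root markers, PRP3, PRP1 and WOX5 were higher in clf-28 roots. MYB36 was lower, at 22.7 to 25.4 FPKM in WT and 18.1 to 19.3 in clf-28. EXPA7 overlapped, at 29.3 to 38.5 and 37.1 to 38.1 FPKM. The seed genes summed to 0.275 to 2.34 FPKM in WT roots and 68.3 to 176 in clf-28 roots. CRU3 made up most of the latter, at 53.6 to 130 FPKM, while LEC1 stood at 0.15 FPKM or less in all root libraries. The part of these markers in the root calls was not tested.

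In clf-28 shoots 1 locus stood apart. XLOC_017067 was listed at 0, 0 and 0.24 FPKM in WT shoots and at 9.48 and 6.62 FPKM in clf-28 shoots replicates 1 and 2 (3.06, SE 0.24, adjusted p = 2.44e-07). The library labelled clf-28 siliques replicate 3, which matches shoots, had 8.92 FPKM, and that labelled clf-28 shoots replicate 3 had 0.168 FPKM, so over the libraries as labelled the difference was 2.08 (adjusted p = 0.0895). In WT it did not exceed 1.23 FPKM in any tissue. RefSeq has no gene on its strand, its nearest neighbour, the Rab GTPase gene ARA6 377 bp downstream on the same strand, was not called (0.12, adjusted p = 0.751), and neither was AT3G54830 on the other side (0.76, adjusted p = 0.0679). XLOC_032230, which shares an interval with the transporter gene ABCB27 on the other strand, went from 1.24, 1.39 and 1.11 FPKM to 3.5 and 3.89 (1.06, SE 0.15, adjusted p = 0.000147). The other named changes in shoots, among them XLOC_024261 (1.30), XLOC_003278 (-1.69), XLOC_015923 (-1.35), XLOC_027124 (-1.31) and XLOC_010952 (-1.20), were less firm. Of 11 named changes in shoots 2 stayed called whichever single library was left out, and 6 stayed called over the libraries as labelled.

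**Figure D4:**
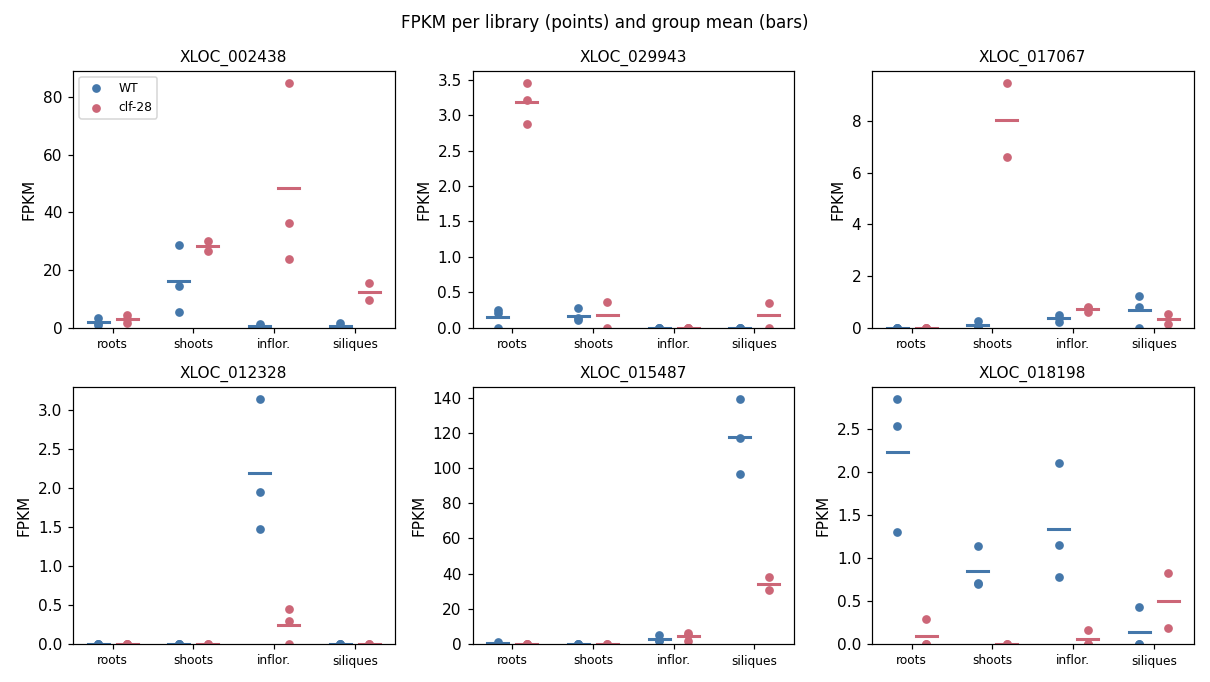
FPKM (vertical axis) of 6 loci in each of 22 libraries by tissue, WT in blue and clf-28 in red, with points for libraries and bars for group means. XLOC_002438 rises in clf-28 inflorescences, XLOC_029943 in clf-28 roots and XLOC_017067 in clf-28 shoots, while XLOC_012328 falls in inflorescences, XLOC_015487 in siliques and XLOC_018198 in roots, shoots and inflorescences.

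In clf-28 inflorescences the largest rises were of 5 loci that in WT were highest in shoots. XLOC_002438 stood at 0.645, 0.138 and 1.27 FPKM in WT inflorescences and 85, 36.2 and 24 in clf-28 (4.73, SE 0.54, adjusted p = 5.55e-05), against 28.5, 14.4 and 5.36 FPKM in WT shoots. XLOC_024673 went from 2.82, 10.3 and 0.114 FPKM to 81.7, 63.8 and 70 (4.32, SE 0.77, adjusted p = 0.00338) and XLOC_024672 from 0, 0.913 and 0 to 17.7, 14.5 and 13 (3.68, SE 0.37, adjusted p = 1.53e-05). XLOC_006687 rose by 2.67 (adjusted p = 5.05e-05), from 0.0688 to 0.294 FPKM in WT to 3.87 to 13.5 in clf-28, and XLOC_011168, which lies 444 bp from WRKY12, by 2.5 (adjusted p = 0.00165). In all 5 the groups do not overlap. Green-shoot markers summed to 8909 to 15317 FPKM in WT inflorescences and 12100 to 17356 in clf-28. CAB1 stood at 2517 to 5752 FPKM in WT and 4494 to 9544 in clf-28. RBCS1A stood at 6392 to 9565 FPKM in WT and 6858 to 7812 in clf-28. For both genes the groups overlapped, and the part of these markers in the rises was not tested. Over the libraries as labelled XLOC_024673 and XLOC_011168 kept their size and lost the call (adjusted p = 0.129 and 0.15).

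Of these loci, 4 sit in 2 stretches, on chromosomes 1 and 4, that also hold named rows, some of which rose. XLOC_002438 spans 17389027 to 17389630 on chromosome 1, with IMA1 (AT1G47400) 2840 bp to its left, which encodes a small peptide that promotes iron uptake, and rows named AT1G47405 from 48 bp to its right. XLOC_006687 lies on the minus strand between those rows. IMA1 stood at 2.83, 0.966 and 4.16 FPKM in WT inflorescences and 149, 48.1 and 50.4 in clf-28 (4.42, SE 0.37, adjusted p = 2.24e-06). The higher of the AT1G47405 rows was listed at 0, 0 and 0.169 FPKM in WT and at 27.6, 9.43 and 9.05 in clf-28 (3.78, adjusted p = 8.43e-06). XLOC_002438, XLOC_006687 and IMA1 also rose in siliques, by 3.09 (adjusted p = 0.00108), 1.37 (adjusted p = 0.00566) and 1.63 (adjusted p = 0.00708), and the call of XLOC_006687 there was lost without clf-28 siliques replicate 1 (1.22, adjusted p = 0.0711). In the chromosome 4 interval the rows of AT4G13572 rose in inflorescences, by 3.00 on the minus strand (adjusted p = 8.31e-06) and by 1.63 on the plus strand (adjusted p = 8.35e-05). HTA4 (0.87, adjusted p = 0.0636) and the row that merges 5 genes (0.47, adjusted p = 0.777) were not called there, and XLOC_024672 rose in siliques by 2.17 (adjusted p = 0.000879).

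**Figure D5:**
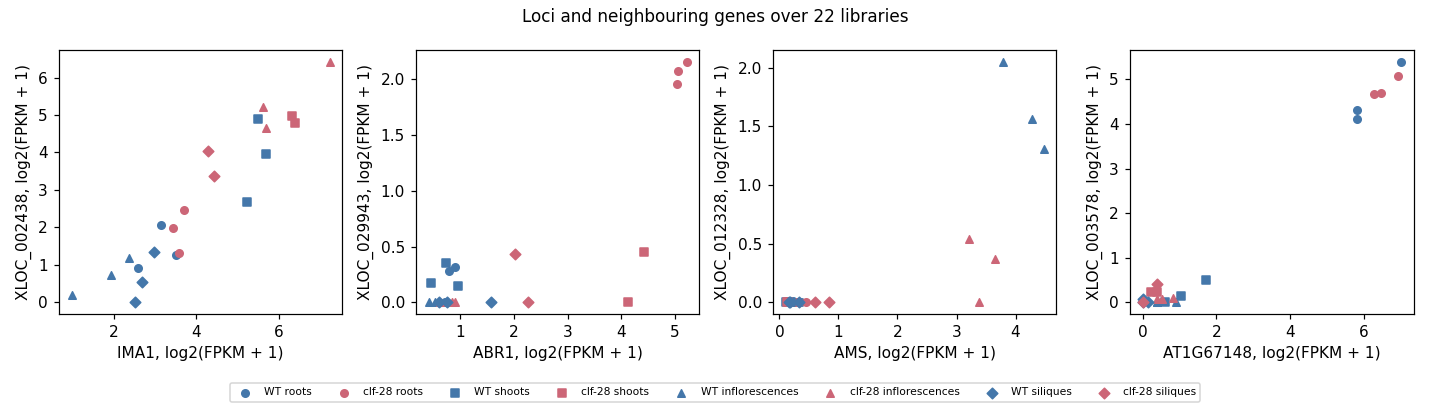
Level of 4 loci (vertical axes) against that of a neighbouring gene (horizontal axes), both as log2(FPKM + 1), over 22 libraries, with shape for tissue and colour for genotype. XLOC_002438 rises along with IMA1 through all groups, XLOC_029943 is high only where ABR1 is high in clf-28 roots and not in clf-28 shoots, and XLOC_012328 and XLOC_003578 are each high in 1 tissue, as are AMS and AT1G67148.

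Of the 20 loci that fell in clf-28 inflorescences, 19 were highest in inflorescences among WT tissues, and 9 were at least 5-fold above each other WT tissue. Of the falls in roots, 9 of 10 were highest there in WT, in siliques 66 of 76 and in shoots 4 of 11. A low locus can fall only where WT expresses it, so these counts are in part set in advance. The share over all falling rows was not taken. In inflorescences, XLOC_000373 went from 10.4, 6.38 and 5.48 FPKM to 2.32, 0.999 and 0.552 (-1.91, SE 0.22, adjusted p = 5.25e-05) and XLOC_022565 from 7.71, 3.6 and 7 to 1.98, 0.727 and 0.111 (-1.94, adjusted p = 0.000184). XLOC_026669, listed at 0 in all root, shoot and silique libraries, went from 4.82, 3.58 and 3.68 FPKM to 1.31, 1.36 and 0.991 (-1.17, SE 0.09, adjusted p = 5.73e-07). XLOC_006697, not specific to the organ, with 1.81 to 2.22 FPKM in WT roots and 2.67 to 3.36 FPKM in WT siliques, went from 4.52, 3.01 and 3.18 FPKM to 1.14, 0.722 and 0.924 (-1.24, adjusted p = 0.00249). XLOC_012328 stood at 3.15, 1.96 and 1.48 FPKM in WT inflorescences, at 0.291, 0 and 0.453 in clf-28 (-1.34, SE 0.14, adjusted p = 2.72e-05) and at 0 in every other library. It lies head to head with AMS, 759 bp away, a bHLH transcription factor gene of the tapetum, the cell layer that feeds pollen, and AMS fell from 17.4 ± 4.31 to 9.74 ± 1.74 FPKM (SD, n = 3), a difference of -0.76 (adjusted p = 0.00635). The S1-like XLOC_030891 fell by 1.36 (adjusted p = 0.000392) and XLOC_028256 by 0.59, from 10.5 to 14.2 FPKM to 6.44 to 9.18 (adjusted p = 0.00673). In bulk tissue, fewer cells of a type and less RNA per cell cannot be told apart. The flower markers AP3, PI, MS2 and CYP704B1, 4 of 5 listed, summed to 419 to 514 FPKM in WT inflorescences and 290 to 335 in clf-28, and the 3 pollen markers to 503 to 922 and 751 to 851. Of the pollen markers, VGD1 stood at 291 to 363 FPKM in WT and 409 to 463 in clf-28. AT3G28830 stood at 149, 553 and 570 FPKM in WT and 435, 329 and 282 in clf-28. The part of the flower and pollen markers in these falls was not tested.

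The spread behind these p-values is shared over all tissues. Of the falling loci, XLOC_012328, XLOC_022565 and XLOC_026669 were listed at 0 in every library of the other tissues, which add no spread for them. How far this bears on the calls was not tested. Fitted to the 6 inflorescence libraries alone, 4 loci were called, and the share over all rows in that fit is not given here. XLOC_002438 and XLOC_024672 kept the call, while XLOC_006687, XLOC_011168 and XLOC_024673 had adjusted p = 0.0719, 0.077 and 0.0997 with the same differences. XLOC_000373, XLOC_012328, XLOC_022565, XLOC_026669, XLOC_030891 and XLOC_028256 were not called (adjusted p = 0.1, 0.109, 0.142, 0.0589, 0.165 and 0.268), again with the same differences.

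In clf-28 siliques 41 loci were higher and 76 lower, and WT siliques replicate 1, the WT library with high seed genes, was in many of them the nearest to clf-28. It was the nearest of the 3 WT libraries for 35 of the 41 loci that were higher, for 43 of the 76 that were lower and for 187 of the 371 not called. XLOC_017626, over a RefSeq lncRNA gene, was listed at 1.41, 0 and 0 FPKM in WT replicates 1 to 3, at 20.3 and 12 in clf-28 (3.63, SE 0.27, adjusted p = 2.05e-07) and at 0 in every root, shoot and inflorescence library used. XLOC_019094 and XLOC_019095 share their interval and strand with FUS3, a master regulator of seed maturation. XLOC_019094 stood at 0.816, 0 and 0 FPKM in WT and 53.7 and 13.6 in clf-28 (4.53, adjusted p = 0.00179), XLOC_019095 at 8.41, 0 and 0 and then 59.5 and 19.4 (4.06, adjusted p = 0.00495), and FUS3 at 21.5, 3.87 and 4.03 and then 123 and 67.5 FPKM (3.49, adjusted p = 5.39e-05). The call of XLOC_019095 was lost without clf-28 siliques replicate 1 (3.27, adjusted p = 0.0861). XLOC_031016, with a frame of 98 residues and no RefSeq gene, went from 10.2, 1.24 and 2.05 FPKM to 23 and 22.3 (2.48, adjusted p = 0.000302). In each of these 4 loci WT replicate 1, with its high seed genes, was the highest WT library, and the part of these genes was not tested.

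The falling silique loci included the specific ones. XLOC_029225 went from 165, 130 and 94.8 FPKM to 33.9 and 44.3 (-1.68, SE 0.21, adjusted p = 2.37e-05), XLOC_015487 from 96.6, 117 and 139 to 30.4 and 38.2 (-1.74, SE 0.38, adjusted p = 0.00232) and XLOC_015484 from 68.2, 148 and 117 to 62.6 and 32.5 (-1.21, SE 0.43, adjusted p = 0.0444). The last call is narrow: the groups nearly meet, and it was lost without any 1 of 14 libraries, down to -0.75 (adjusted p = 0.371) without clf-28 siliques replicate 2. XLOC_005697, listed at 8.39, 6.51 and 6.19 FPKM in WT and 1.47 and 0.981 in clf-28 (-1.85, adjusted p = 1.42e-05), XLOC_010144, at 3.94, 9.51 and 10.6 against 1.35 and 1.67 (-1.75, adjusted p = 4.67e-05), and XLOC_027770, at 2.41, 5.38 and 6.4 against 0 and 0 (-2.44, adjusted p = 0.000279), have no RefSeq gene on their strand. Of the 115 tested loci with no RefSeq gene on either strand, 33 were lower and 8 higher in clf-28 siliques, and of the 46 over unlisted protein-coding genes 14 were lower and 1 higher, while the 147 over non-coding RNA genes had 12 lower and 13 higher. Over all rows 16.3% were lower and 12.1% higher, and the classes were not tested against each other. The endosperm markers PHE1, PHE2 and FWA summed to 31.2 to 45.0 FPKM in WT siliques and to 12.9 and 13 in clf-28. The flower markers summed to 112 to 167 and then 63.8 and 67.7 FPKM, the pollen markers to 57.6 to 67.5 and then 22.3 and 23.9 FPKM. The flower sum was nearly all AP3, at 106 to 164 and then 60.6 and 61.4 FPKM. PI stood at 2.31 to 5.42 and then 3.11 and 6.18 FPKM. The part of these markers was not tested. Over the libraries as labelled 12 loci were higher and 61 lower, and fitted to the 5 silique libraries alone 3 and 16. The shares over all rows in these fits are not given here. As labelled, XLOC_017626, XLOC_019094, XLOC_019095, XLOC_031016 and XLOC_015487 had adjusted p = 0.103, 0.212, 0.0965, 0.587 and 0.0555.

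Across tissues 182 of the 488 loci were called at least once and 13 were called the same way in 2 or more tissues. The matching shares over all rows were not taken, so these counts cannot be set against the table as a whole. XLOC_018198 was the one lower in 3. Beside its fall in roots it stood at 0.696, 0.707 and 1.14 FPKM in WT shoots against 0 and 0 in clf-28 (-0.88, adjusted p = 0.0362), and at 2.1, 0.774 and 1.15 FPKM in WT inflorescences against 0, 0 and 0.162 (-1.11, adjusted p = 0.00904). The shoot call was lost without any 1 of the 5 shoot libraries (adjusted p from 0.0609 to 0.193). In siliques the locus was at 0, 0 and 0.424 FPKM in WT and 0.821 and 0.18 in clf-28 (0.38, adjusted p = 0.302). It lies 222 bp from AT3G11591, which was not called in any of the 4 tissues. Among the others, XLOC_000510, XLOC_008320 and XLOC_032230 were called higher in 2 tissues and XLOC_020131 lower in 2, and each of these 4 had a call that was lost without 1 library. The F test of genotype by tissue passed for 126 of 488 loci, or 25.8%, against 26.3% of all rows.

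Whether a locus and its nearest named row move together was described over the loci that were alone. Over 22 libraries, which share 8 groups, the Pearson correlation of their log2(FPKM + 1) had a median of 0.27 over 349 loci, with quartiles of -0.13 and 0.60. It was 0.39 for loci upstream of a gene on the same strand and 0.11 for tail-to-tail loci. In roots, of 14 rising loci with a tested neighbour, 4 had a neighbour that was also called higher and 1 a neighbour called lower, beside 18 higher and 5 lower of the 263 neighbours of loci not called. In siliques, of 52 falling loci 14 had a neighbour called lower and 5 a neighbour called higher, beside 35 and 24 of 205. The 27 rising silique loci showed no shared direction, with 4 neighbours higher and 4 lower. Of 7 falling root loci, 0 had a called neighbour. In inflorescences 4 rising loci had 2 neighbours higher and 1 lower, and 8 falling loci 0 higher and 1 lower. In shoots 7 falling loci had 0 higher and 1 lower, and the 1 rising locus had 0 called. Most called loci therefore had a nearest named row that was not called in the same tissue.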

How the data were processed

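The deposited table gives FPKM for 24 libraries in 8 groups of 3. Per the labels the authors prepared strand-specific single-end libraries, and per the submitters' processing notes TopHat, Cufflinks and Cuffdiff were run with the TAIR10 build (tool versions are not given in the sources used here). Deposited FPKM scale fragments to transcript length and library size, and depth per library is unknown. The 48 deposited columns of confidence bounds were not used. The status columns flag 113 values as FAIL and 15 as HIDATA, none of them at a locus with no gene name.

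Members were the rows with an empty gene name. The members and lists were chosen with earlier results of these data known. Rows at 1 FPKM or more in at least 3 of 22 libraries were kept (24335), values were taken as log2(FPKM + 1), which understates changes of low rows, and limma (3.58.1, under R 4.3.3) fitted 1 coefficient for each group with an intensity trend and a robust prior. Tests are two-sided, with Benjamini-Hochberg adjustment over all rows and a threshold of 0.05. Differences are clf-28 minus WT on that scale. The fit was tested on simulated data. The strand was read from the locus numbers, which run up each chromosome once per strand. Of named rows, 98.7% in the first run lie on the plus strand and 98.6% in the second on the minus strand. Positions are 1-based TAIR10 intervals as deposited. Of 23403 named rows alone in their interval, 6950 match a TAIR10.1 RefSeq gene at both ends to the base, and sequence, reading frames and annotated genes were read from TAIR10.1 (blast 2.17.0 for copies and protein matches).

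Loci were named by rule: the 10 with the highest mean, per tissue up to 8 rises and 8 falls (called, at least 2-fold, a group mean of 1 FPKM, no overlap), those called the same way in most tissues or in opposite directions, the 5 highest tissue-specific loci per WT tissue, the 3 longest and 3 shortest, and the nearest named rows. The S1-like loci and the rows that share an interval were added after values were seen. Alternatives covered library sets, replicate blocks, pseudocounts, filters and scalings.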

Additional observations from a re-analysis of the deposited data

Results flagged for a closer look

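The change in clf-28 differed between tissues for 126 loci with no gene name, by the limma F test of genotype by tissue (adjusted p under 0.05). That is 25.8% of the loci tested, near the 26.3% of all rows, so the count is no trait of these loci. XLOC_010178 and XLOC_021024 were called in opposite directions in 2 tissues. XLOC_010178, of 464 bp with AT2G27680 6 bp from its end, went from 9.58, 7.29 and 6.27 FPKM in WT inflorescences to 1.39, 0.937 and 1.08 in clf-28 (-2.02, adjusted p = 0.000832), and from 0.654, 0 and 0 FPKM in WT siliques to 0.863 and 5.76 in clf-28 (1.59, adjusted p = 0.00229), with an adjusted p = 0.00023 for the interaction. The silique call was lost without clf-28 siliques replicate 2 (0.66, adjusted p = 0.0604). XLOC_021024, in an interval of 222399 bp that holds many named rows, fell in siliques from 14.2, 13.5 and 17.3 FPKM to 4.96 and 6.48 (-1.25, adjusted p = 0.0045). In roots it was listed at 0 in all 3 WT libraries and at 0, 2.37 and 1.13 FPKM in clf-28 (0.95, adjusted p = 0.0353), groups that overlap, and the interaction had an adjusted p = 0.00489. Its root call was lost without any of the WT root libraries or without clf-28 roots replicate 2 or 3 (0.55 to 0.95), and its silique call without clf-28 siliques replicate 1 (-1.09, adjusted p = 0.0669).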

How the results depend on the processing

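Counts of loci called in roots, shoots, inflorescences and siliques, among WT tissues and by the interaction were 33, 18, 30, 117, 402 and 126. For the alternatives below, the shares over all rows are not given here. The counts of loci called moved by over 1.5 times as follows, and the cause was not tested. In some settings fewer loci or libraries entered. As labelled, shoots had 9, siliques 73 and the interaction 76. A pseudocount of 0.1 FPKM gave 21 in roots, 14 in inflorescences and 74 for the interaction. Without a filter shoots had 29 and siliques 177 of 764 loci. A filter of 3 FPKM left 231 loci and gave 13, 8, 16, 67, 193 and 66. Without the 4 WT replicate 1 libraries roots had 50, shoots 47 and inflorescences 75. The libraries of the tissue alone gave 4 in inflorescences and 19 in siliques. Leaving out 1 library gave 14 to 37 in roots, 6 to 29 in shoots, 24 to 46 in inflorescences, 83 to 126 in siliques, 374 to 397 among WT tissues and 94 to 150 for the interaction. In roots each clf-28 library decided the count, with 14, 17 and 18 without replicates 1, 2 and 3. Shoots fell to 10 without WT shoots replicate 2 and to 6 without clf-28 shoots replicate 1 or 2, and rose to 29 without WT siliques replicate 1. Inflorescences rose to 46 without WT replicate 1. Whether the replicate numbers pair the samples is not known. Deviations of same-numbered WT and clf-28 libraries correlated at -0.20 to 0.14 over 10 pairs, which cannot exclude a shared batch. They were positive for shoots (0.14 and 0.11) and siliques (0.09 and 0.07) and negative for inflorescences. With a replicate block within tissue shoots had 10 loci and the interaction 82. Of 66 named changes in clf-28, 17 stayed called under every alternative and 40 without any single library, and 0 changed direction. The 20 named WT tissue patterns passed under every alternative in which the locus was tested. Named rises and falls were picked as called, at least 2-fold and without overlap, and the WT patterns as called and at least 5-fold. Their kept direction and calls are therefore in part set by that choice and are no independent check. Depth per library is unknown, so no counting error can be given for a locus.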
